A study of Mus musculus with 34 samples.

Results

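The scrambled morpholino was compared with no treatment in proliferating cells, to describe what a control oligomer does to gene expression. The comparison takes 3 log phase cultures that received scrMo and 3 log phase cultures that received no morpholino (NT), 6 of the 34 samples of the series. The samples were chosen by their labels, and the difference of the group means was taken over all 16562 usable genes. All cultures were MOSJ-Dkk1 cells, a mouse osteosarcoma line with osteochondral features that carries a red fluorescent protein and a lentiviral insert from which the cytomegalovirus promoter drives constitutive secretion of human Dkk-1. The human transgene is therefore shared by NT, scrMo and DkkMo cultures, and Dkk1 has no row in the table. Log phase means day 6 of culture. The protocol gives the morpholino dose as 5 µM, added 24 h after plating, whereas a figure legend of the authors names a higher DkkMo dose in log phase. DkkMo is the morpholino directed at Dkk-1, and scrMo is a mismatched version of it. The labels call the NT treatment vehicle, whereas the protocol describes it as no morpholino. The same 3 treatments were also given to confluent cultures under nutritional stress, 18 cultures in all.

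Morpholinos are synthetic nucleic acid analogues that block translation or splicing of an RNA by base pairing, and the vivo form carries a cationic delivery group that takes it through endosomes into cells. A scrambled oligomer is meant to carry the same chemistry without the target. Interferon-stimulated genes are the antiviral effector genes that rise when interferon binds its receptor and a transcription factor complex that holds Irf9 enters the nucleus, and many of them are also held at a basal level in cells that meet no virus.

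The recovered depth was 33.8 to 44.8 megareads (M) per culture in NT and 28.2 to 33.0 M in scrMo, so the depths of the groups did not overlap. Rank correlations between replicates were 0.996 to 0.998 in NT and 0.992 to 0.996 in scrMo, where replicate 1 stood apart from the other two. Nothing in the labels says that replicates were separate thaws or passages, so p values measure the spread between these flasks. The line expressed the osteoblast regulator Runx2 (mean normalized counts 2302 in NT and 2347 in scrMo) and the chondrocyte regulator Sox9 (5373 and 6059). Alpl (alkaline phosphatase) and Col2a1 (cartilage collagen) were close to absent, at 10.3 and 6.49 in NT, and Sp7 and Acan have no row.

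Across all genes, 405 were differentially expressed (DE), 2.45% of the 16562 tested. The call required more than a 1.5-fold change together with an adjusted p below 0.05. Of these, 98 (0.592%) were higher and 307 (1.85%) lower with scrMo. Log2 fold changes are differences of the deposited variance-stabilised values, which understate changes of genes with few reads, so normalized counts are given beside them. The median change over all genes was -0.00. In 403 of the 405 DE genes the scrMo and NT values did not overlap, a pattern found in 37.8% of all genes. At an adjusted p below 0.05 without a fold limit, 1954 genes (11.8%) were higher and 2411 (14.6%) lower. The fold limit bears on the scale. With log2 values of normalized counts (pseudocount 1) in their place, 1320 genes passed both limits and they included all 405. A single gene tested by exact permutation, two-sided, 3 against 3, could not give a p below 0.1, so single genes rest on the limma model over the 18 cultures. With only NT and scrMo in the model 403 genes were called, 402 of them among the 405. In bulk RNA, fewer cells of a type and less RNA per cell cannot be told apart.

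**Figure D1:**
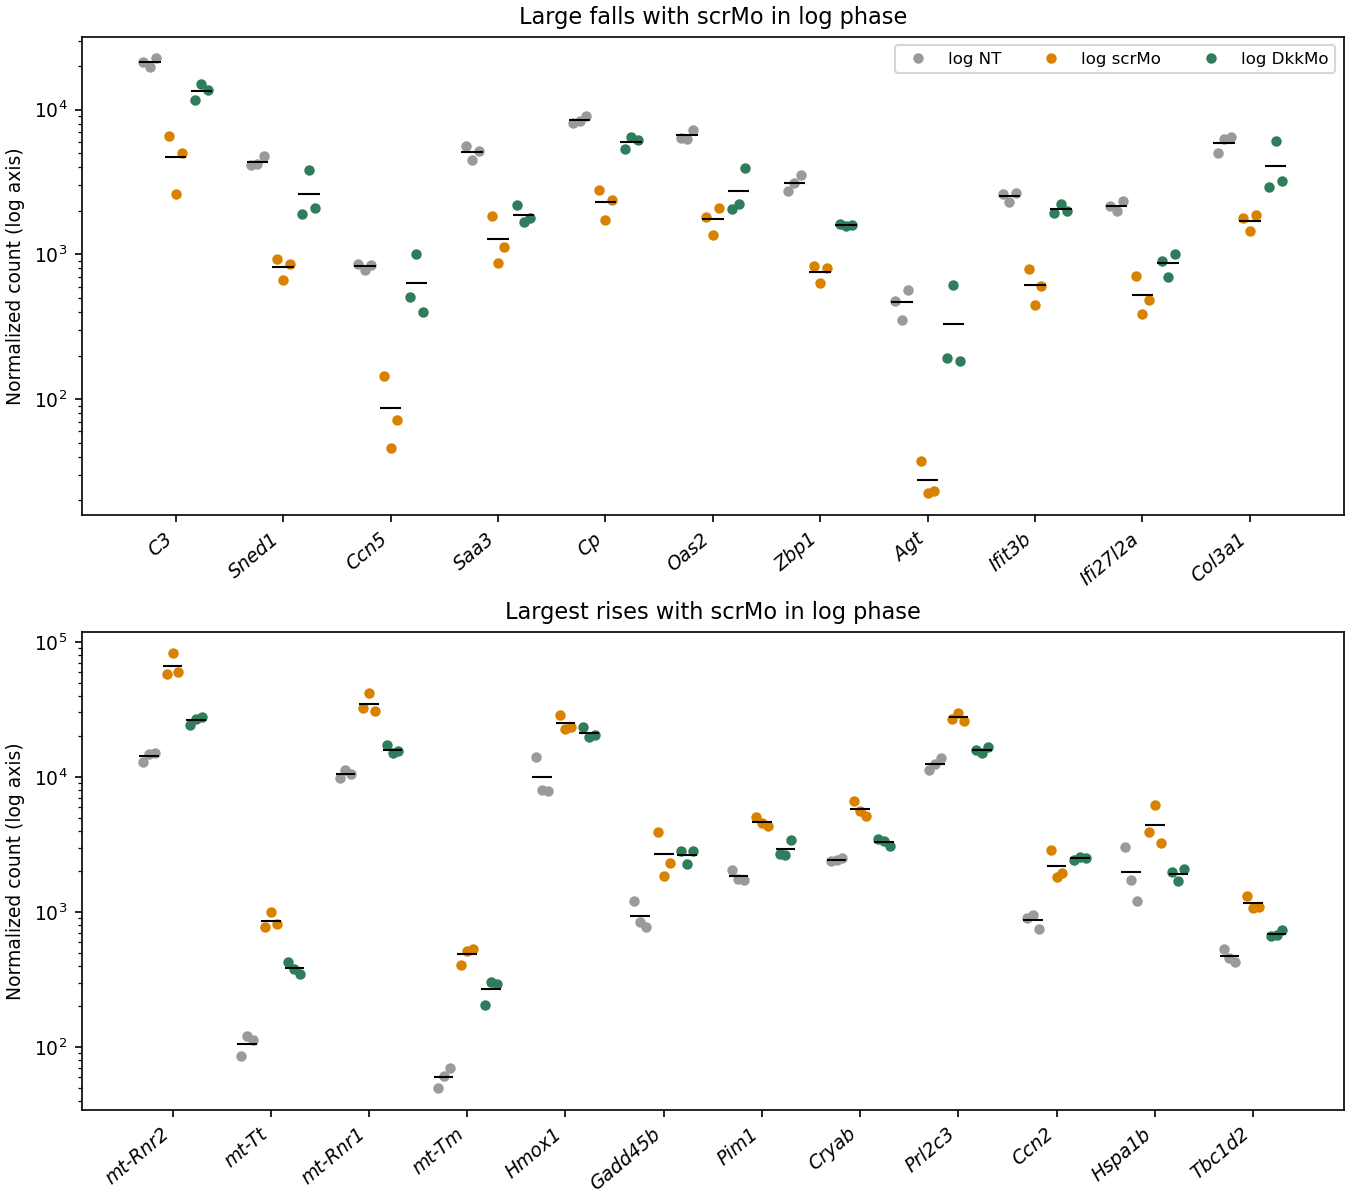
Normalized counts (log axis) of 11 genes with large falls (top) and the 12 with the largest rises (bottom) between log phase NT and scrMo, with 1 point per culture for NT, scrMo and DkkMo and a bar for each mean of 3. Only genes whose NT and scrMo points do not overlap were eligible to be drawn. Agt falls from 353 to 569 in NT to 22.5 to 37.7 in scrMo.

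Complement genes were among the largest falls. C3 encodes the central complement component and lies at chr17:57203970-57228136 (GRCm38, minus strand). Its normalized counts were 21330.2, 19575 and 22544 in NT and 6548, 2618 and 4978 in scrMo. Every scrMo culture lay far below every NT culture, a 4.49-fold lower mean (21149.6 ± 1493 in NT and 4715 ± 1978 in scrMo, SD, n = 3 each). On the variance-stabilised scale C3 fell by 2.18 (SE 0.20, adjusted p = 1.91e-07), with replicate 2 the lowest and replicate 1 the highest of the scrMo cultures. C1ra and C1s1, the proteases of the first complement complex, fell by 1.01 and 0.99. The receptors C3ar1 and Cd93 rose, by 0.76 and 0.81. Of 20 measured genes in a list of complement components and regulators, 5 fell and 2 rose, with a median of -0.19. Of all genes 1.85% fell and 0.592% rose. That list was drawn up after values of its members had been seen.

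Secreted acute phase and matrix-associated proteins were among the other large falls. Agt, the precursor of angiotensin, had normalized counts of 480.3, 352 and 569 in NT and 37.7, 22.5 and 23.1 in scrMo. This is a 16.8-fold lower mean, but because its level is low the variance-stabilised change was -1.69 (adjusted p = 1.40e-06). Ccn5, a matricellular protein of the CCN family, went from 856, 780.4 and 849 to 144, 46.1 and 72.2, and the highest scrMo culture lay far below the lowest NT culture. Saa3, an acute phase serum amyloid, stood at 5586, 4461 and 5204 in NT and 1833, 873 and 1124 in scrMo (change -1.83, adjusted p = 1.26e-05). Cp, the copper-carrying ferroxidase ceruloplasmin, fell by 1.79 and Sned1, an extracellular matrix glycoprotein, by 2.10. Mmp13, a collagenase, fell by 1.57, from 1643, 1292 and 1435 to 362, 251 and 378. In the list of NF-kB feedback and acute phase genes, 5 of 28 measured members fell and 2 rose (median -0.03). These counts stand against 1.85% of all genes lower and 0.592% higher. The 5 were C3, Saa3, Mmp13, the iron-binding Lcn2 and the adhesion molecule Vcam1, and the 2 that rose were Ptgs2 (prostaglandin synthase, 0.87) and Tnfaip3 (an NF-kB inhibitor, 0.75). Among chemokine ligands Cxcl5, a neutrophil attractant, fell by 1.28, with normalized counts of 1018, 718 and 874 in NT and 311, 134 and 246 in scrMo. The membrane-bound Cx3cl1 also fell, by 0.67, a value that was -0.58 and short of the fold limit without scrMo replicate 2.

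Interferon-stimulated genes fell almost as a whole. Of 58 listed, 54 were measured, 45 fell and 0 rose, against 1.85% of all genes lower, and 51 passed the adjusted p alone. The list's median was -1.002, and between 44 and 45 members were called whichever replicate of NT or scrMo was left out. Oas2, which makes the second messenger that activates RNase L, stood at 6329, 6289 and 7273 in NT and 1824, 1367 and 2097 in scrMo. Zbp1, a sensor of Z-form nucleic acid at chr2:173206612-173218923, had 2721, 3125 and 3552 in NT and 826, 635 and 802 in scrMo, and fell by 1.73 (SE 0.08, adjusted p = 7.20e-11). Ifit3b, a tetratricopeptide protein of the IFIT family, had 2601, 2292 and 2672 in NT and 798, 448 and 606 in scrMo. The means of these 3 genes were 3.76, 4.16 and 4.08 times lower in scrMo. Irf7, the transcription factor that amplifies type I interferon genes, stood at 3391, 3465 and 3542 in NT and 1152, 801 and 986 in scrMo and fell by 1.59 (adjusted p = 1.19e-10). Gbp3, a guanylate-binding GTPase, fell by 1.55, and Stat2, a signal carrier of the interferon receptor, by 1.18. The ubiquitin-like Isg15 fell by 1.36, from a mean of 4314 to 1509.5. Ifi27l2a, an interferon-inducible mitochondrial protein outside the list, fell by 1.64. Members that were not called were Psmb9, Irf9, Ifit2, Adar, Trim25 and Shisa5, between -0.55 and -0.36, and Oasl1, Ifi27 and Cd274, between -0.07 and -0.03. Reads of near-identical copies such as Ifit3 and Ifit3b, the Oas1 genes or the Gbp genes may have been split in counting, so single members are less certain than the group.

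Irf7 and Stat2, which also act upstream of such genes, were counted above. In a separate list of interferon ligands, receptors, sensors, kinases and regulators, 35 of 41 genes were measured, 0 were called in either direction (1 without NT replicate 3 or scrMo replicate 1), 10 were lower and 1 higher at the adjusted p alone, and the median was -0.06. At the adjusted p alone 14.6% of all genes were lower and 11.8% higher. Ifnb1 and Ifnar2 have no row. The receptor chain Ifnar1 was 1895, 1837 and 1935 in NT and 1844, 1935 and 1989 in scrMo (change 0.02, adjusted p = 0.784). The DNA sensor Cgas changed by -0.15 and the transcription factors Irf1 and Irf3 by -0.04 and -0.02. For Irf1 the scrMo cultures ranged from 1769 to 4944, so a change of modest size was not detectable, and the sign of Irf1 and Irf3 turned with libraries centred on their median or without single replicates (0.31 for Irf1 without scrMo replicate 2 and -0.37 without scrMo replicate 1). The largest differences were in Tlr2, a sensor of bacterial lipoprotein (-0.57), Tyk2, the receptor-associated kinase (-0.55), and Tlr3, a sensor of double-stranded RNA (-0.42), each past the adjusted p but not the fold limit. With log2 values of normalized counts (pseudocount 1), these 3 passed both limits, at -0.70, -0.61 and -1.05.

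The promoters of 4 interferon-stimulated genes that fell are shown because they hold the core of the interferon-stimulated response element, to which interferon regulatory factors bind. The core was searched as a pair of GAAA half-sites separated by any 2 bases (NN), on both strands, so that on the other strand the half-site reads TTTC. Each line gives the 120 bases before the RefSeq start site (GRCm38.p6), 5′ to 3′ on the gene's strand, with the core in capitals. The 4 were taken in order of their fall among members with a core in this window whose start was also found in a GENCODE transcript.
Gbp3 (chr3:142559924-142560043, plus strand): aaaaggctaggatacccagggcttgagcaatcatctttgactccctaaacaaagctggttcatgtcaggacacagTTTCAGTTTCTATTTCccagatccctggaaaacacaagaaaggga
Gbp2 (chr3:142620543-142620662, plus strand): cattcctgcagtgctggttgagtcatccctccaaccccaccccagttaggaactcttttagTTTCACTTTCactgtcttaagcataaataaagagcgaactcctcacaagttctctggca
Isg15 (chr4:156200819-156200938, minus strand): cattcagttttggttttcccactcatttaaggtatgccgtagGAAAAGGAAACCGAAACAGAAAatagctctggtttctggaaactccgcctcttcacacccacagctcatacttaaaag
Ifit1 (chr19:34640769-34640888, plus strand): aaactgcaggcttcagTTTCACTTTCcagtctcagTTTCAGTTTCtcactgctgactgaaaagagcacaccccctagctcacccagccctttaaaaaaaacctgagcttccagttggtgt
Gbp2, a guanylate-binding GTPase, changed by -1.44, and Ifit1, which binds uncapped RNA, by -1.33. Some cores overlap one another, as in Gbp3 and Isg15. Over the full window of 250 bases before to 50 after the start, 19 of the 33 called members that have a promoter in the table hold the core (57.6%), against 1 of 8 members that were not called (12.5%) and 3.55% of the 10521 tested genes with a promoter. Among the other genes that fell, 29 of 177 hold it (16.4%), and among genes that rose 2 of 63 (3.17%). Of all measured list members with a promoter, called or not, 20 of 41 hold it (48.8%), so the excess over all genes comes with the choice of the list. The 8 members that were not called are few, and whether the share differs by call was not tested. A match describes the letters of the window and not a bound site.

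Antigen presentation on MHC class I fell with the interferon-stimulated genes. Of 23 listed genes 21 were measured, and 11 fell and 0 rose, against 1.85% of all genes lower. At the adjusted p alone 19 were lower, against 14.6% of all genes, and the list median was -0.68. Psmb8, a catalytic subunit of the immunoproteasome, stood at 1411, 1446 and 1402 in NT and 557, 477 and 451 in scrMo and fell by 1.16 (adjusted p = 1.93e-10). The heavy chain genes H2-T23, H2-Q4 and H2-T22 fell by 1.05, 0.89 and 0.88, with reads of related chains hard to separate. The classical chains H2-K1 and H2-D1 fell by 0.81 and 0.78, and B2m, the shared light chain, by 0.70. Tapbp, which loads peptide onto the chains, had 5411, 5792 and 5464 in NT and 3503, 2442 and 3025 in scrMo. The transactivator Nlrc5 and the peptide transporters Tap1 and Tap2 fell by 0.68, 0.68 and 0.78. The general chaperone Canx (calnexin) was 0.04 and the disulfide isomerase Pdia3 -0.05. The 11 calls stood in each fit that left out a replicate of NT or scrMo.

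**Figure D2:**
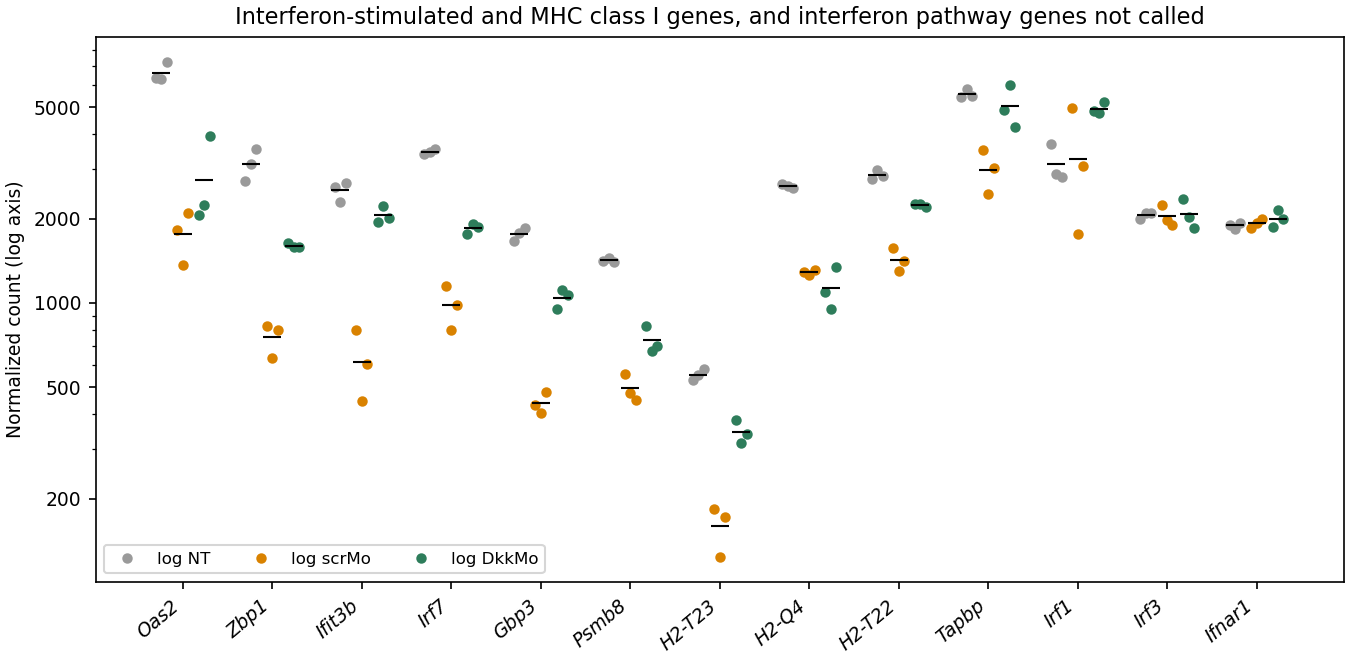
Normalized counts (log axis) in each log phase culture for interferon-stimulated genes (Oas2 to Gbp3), MHC class I genes (Psmb8 to Tapbp) and pathway genes that were not called (Irf1, Irf3 and Ifnar1), with bars for the means of 3. The 10 genes on the left have lower scrMo than NT values without overlap, and in the 3 on the right the groups overlap.

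Of 32 measured genes for collagens and collagen-processing enzymes, 12 fell and 0 rose (median -0.34), against 1.85% of all genes lower. Col3a1, fibrillar collagen III, stood at 4994, 6267 and 6499 in NT and 1797, 1459 and 1869 in scrMo, a fall of 1.64 (SE 0.17, adjusted p = 8.48e-07). Col1a2 and Col1a1, the chains of collagen I, fell by 1.06 and 0.95. Col1a1 had 15121, 17678 and 17004 normalized counts in NT and 12158, 6476 and 7535 in scrMo, with replicate 1 the highest scrMo culture. Col6a1 fell by 1.00 and Pcolce, an enhancer of procollagen cleavage, by 1.05. The prolyl hydroxylases P4ha1 and P4ha2 were 0.08 and 0.29 and did not pass. Leaving out scrMo replicate 2 left 9 called members.

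In the osteoblast list, 4 of 14 measured members fell and 0 rose (median -0.09), against 1.85% of all genes lower. Spp1 (osteopontin) had 186214, 194979 and 214487 normalized counts in NT and 116256, 90890.3 and 120509 in scrMo and fell by 0.87 (adjusted p = 1.05e-06). Ifitm5, a bone-restricted membrane protein, fell by 0.68 and Sparc (osteonectin) by 0.59. Sparc was at -0.48 without scrMo replicate 2 and -0.56 without replicate 3, short of the limit. Runx2 was 0.02. Spp1 holds most of the summed osteoblast counts, which were 244310 to 276650 in NT and 124100 to 162570 in scrMo.

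**Figure D3:**
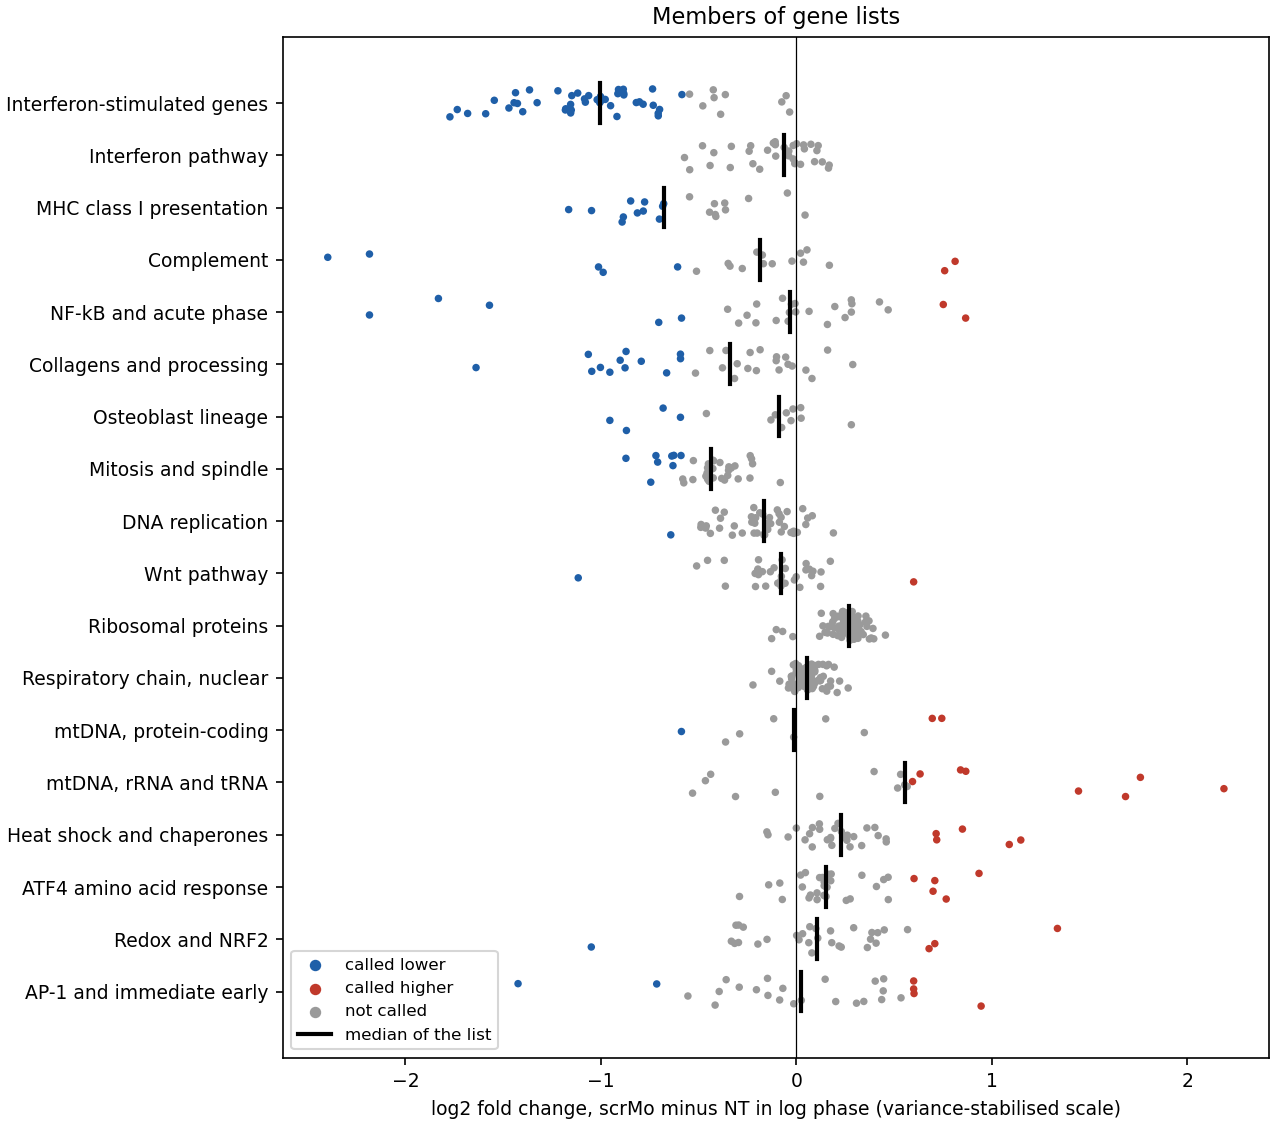
Log2 fold changes (variance-stabilised scale, scrMo minus NT, log phase) of the members of 18 gene lists, with 1 point per gene, colour for the call and a bar for the list's median. Interferon-stimulated genes have the lowest median, -1.002, mitochondrial rRNA and tRNA genes the highest, 0.56, and the median of all genes is -0.00.

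Genes of mitosis shifted down by a smaller step. Of 38 measured members 8 fell and 0 rose, against 1.85% of all genes lower. At the adjusted p alone 35 were lower (list median -0.44), against 14.6% of all genes. Mki67, the proliferation marker, stood at 3656, 4123 and 4286 in NT and 2345, 1697 and 2211 in scrMo and fell by 0.87 (SE 0.14, adjusted p = 1.29e-04). Cenpf, a kinetochore protein, fell by 0.74 and Anln (anillin, of the cytokinetic ring) by 0.72. Top2a (topoisomerase) and Nusap1 (a spindle protein) fell by 0.71 and 0.64, but were -0.58 and -0.57 without scrMo replicate 2. Most members lay close to the fold limit, and the number called moved from 3 without scrMo replicate 2 and 5 without NT replicate 2 to 12 without scrMo replicate 1. With each library centred on its median it was 5. In the DNA replication list 1 of 45 measured members fell, Uhrf1, the reader of hemimethylated DNA (-0.64, and -0.58 without NT replicate 2). Another 23 members were lower at the adjusted p alone, among them Mcm6 and Mcm5 of the replicative helicase (-0.49 and -0.46). The list median was -0.17, and 2 members were called without NT replicate 1.

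Some RNAs of the mitochondrial genome, its ribosomal RNAs above all, were among the largest rises. The ribosomal RNAs encoded there form the core of the mitochondrial ribosome. The large subunit gene mt-Rnr2 (chrM:1094-2675) had normalized counts of 12886, 14824 and 15054 in NT and 58097, 82079 and 59879 in scrMo, a 4.68-fold higher mean (change 2.19, SE 0.11, adjusted p = 1.19e-10). The small subunit gene mt-Rnr1 had 9796, 11304 and 10569.9 in NT and 32134, 41671 and 30732 in scrMo. Together they took 0.0706 to 0.0819% of the reads in NT and 0.268 to 0.390% in scrMo, with replicate 2 the highest. The other mitochondrial reads did not rise in sum. Protein-coding genes took 1.61 to 1.74% of the reads in NT and 1.46 to 1.49% in scrMo. Transfer RNAs took 0.617 to 0.647% in NT and 0.598 to 0.615% in scrMo. Of 19 measured mitochondrial rRNA and tRNA genes, 8 rose and 0 fell by the called limits (median 0.56), against 0.592% of all genes higher. mt-Tt and mt-Tm, transfer RNAs for threonine and methionine, rose by 1.76 and 1.44. Their normalized counts were 86.1, 120.3 and 112 in NT and 779.8, 998 and 815 in scrMo for mt-Tt, and 49.7, 60.5 and 69.7 and 407, 514 and 536 for mt-Tm, or 8.14-fold and 8.1-fold higher means. In the same list mt-Ts1, mt-Tn and mt-Ta were between -0.53 and -0.44. Reads on such short genes can come from neighbours on the long mitochondrial transcripts, and the strand setting is not given in the sources used here. Among 9 measured protein-coding mitochondrial genes, mt-Nd2 and mt-Nd3 of complex I rose by 0.74 and 0.70. mt-Co1 of complex IV fell by 0.59, short of the limit without scrMo replicate 2 (-0.52) or NT replicate 3 (-0.57). Of 75 nuclear-encoded respiratory chain subunits 0 were called (median 0.06), 1 of them passing the adjusted p. The libraries were made from RNA selected by oligo(dT), and mitochondrial rRNA has short or no poly(A) tails. Of 18 histone genes, whose messages end mostly without poly(A), H1f2 and H2bc8 rose by 0.63 and 0.61 and 0 fell, with 1 call left without NT replicate 1, scrMo replicate 1 or scrMo replicate 2. The part of RNA selection in these values was not tested.

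**Figure D4:**
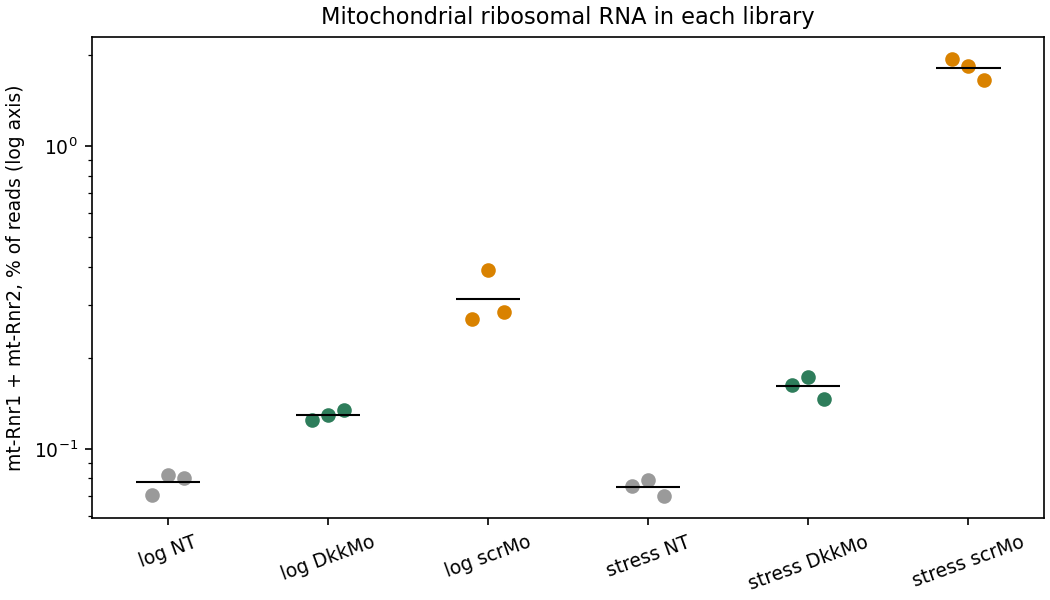
Share of all recovered reads on mt-Rnr1 and mt-Rnr2 (percent, log axis) in each of the 18 cultures, with a bar for the mean of 3. The scrMo cultures lie above NT and DkkMo in log phase, and the stress scrMo cultures reach 1.65 to 1.95%.

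Some genes of the stress responses rose, in lists to be read against 0.592% of all genes higher. Hmox1 (heme oxygenase) stood at 14058, 8010.4 and 7932 in NT and 28609, 22526 and 23617 in scrMo, a rise of 1.34 (SE 0.16, adjusted p = 6.96e-06), with NT replicate 1 nearest to the scrMo cultures. It was among 3 of 32 measured redox and NRF2 genes that rose, with the cystine importer Slc7a11 (0.71) and the metallothionein Mt1 (0.68, and 0.38 without scrMo replicate 1, with an adjusted p of 0.0601 where limma was fitted to NT and scrMo alone). Cbr2, a carbonyl reductase, fell by 1.05. Of 33 measured heat shock and chaperone genes 5 rose and 0 fell (median 0.23). Cryab, a small heat shock protein, had 2402, 2412 and 2523 in NT and 6604, 5639 and 5143 in scrMo (change 1.15, adjusted p = 1.08e-06). The inducible Hspa1b rose by 1.09 and its nucleotide exchange factor Hsph1 by 0.85. Hspb1 rose by 0.72, and was 0.54 without scrMo replicate 1. Of 35 measured ATF4 genes 5 rose and 0 fell (median 0.15), and 3 were called without scrMo replicate 1. Chac1, which degrades glutathione, rose by 0.94 and Gdf15, a stress hormone, by 0.77. Ddit4 and Slc3a2 rose by 0.70 and 0.60, and were 0.58 and 0.55 without scrMo replicate 1, while Slc3a2 was also 0.56 and 0.53 without NT replicates 2 and 3. Of the 25 measured p53 targets 2 rose, the kinases Plk2 and Plk3 (0.71 and 0.75).

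Immediate early genes went both ways. Fos, an AP-1 subunit, stood at 1426, 1052 and 959.7 in NT and 368, 207 and 259.6 in scrMo and fell by 1.42 (adjusted p = 5.35e-06). Zfp36, which destabilises messages, fell by 0.71, and was -0.54 without scrMo replicate 2. Dusp5, a nuclear phosphatase of ERK, rose by 0.95, from 6600.4, 6186 and 6155 to 13270.5, 11002 and 13130.4. Of 27 measured members 4 rose and 2 fell (median 0.03), against 0.592% of all genes higher and 1.85% lower. In that list 3 members were called without NT replicate 3. Ier3, Myc and Dusp4 sat at the limit, each at 0.60, with the lowest values for a left-out replicate being 0.51, 0.56 and 0.52. Ier3 lost its call without NT replicates 2 or 3 or scrMo replicate 1 (0.57, 0.55 and 0.51), Myc without NT replicate 3 or scrMo replicate 1 (0.57 and 0.56), and Dusp4 without NT replicate 3 or scrMo replicate 2 (0.58 and 0.52). Gadd45b, a stress sensor, rose by 1.24 and the kinase Pim1 by 1.21. The growth-regulating Prl2c3 (proliferin family, whose copies share reads) rose by 1.12 and Tbc1d2, a Rab GTPase regulator, by 0.97. Of 27 measured contractile targets of SRF and YAP, Ccn2 and Ankrd1 rose by 1.10 and 0.72. Acta2 (smooth muscle actin) fell by 0.88 and Thbs1 (thrombospondin) by 0.63, and Thbs1 was -0.49 without scrMo replicate 2.

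Other lists held few called genes, to be read against 1.85% of all genes lower and 0.592% higher. Of 34 measured Wnt pathway genes, Dkk3, a secreted relative of Dkk-1, fell by 1.12 (2189, 2552 and 2741 in NT and 1189.5, 802 and 1045 in scrMo), Myc rose as above (1 call was left without NT replicate 3 or scrMo replicate 1), and Axin2 and Lef1, which Wnt signalling raises, were -0.06 and -0.11. In cholesterol synthesis 1 of 32 fell, the sterol sensor Insig1 (-0.87). In endocytosis 2 of 29 fell, the proteoglycan Gpc1 (-0.69) and the receptor Lrp1 (-0.64, and -0.51 without scrMo replicate 2). Casp12 was the only called member of 28 cell death genes (-0.60), and at -0.55 it missed the fold limit with libraries centred on their median. Without scrMo replicate 2, 3 cell death genes were called, and without NT replicate 1 or scrMo replicate 3, 2 were. Of the 78 ribosomal protein genes 0 were called and the median was 0.27. At the adjusted p alone 39 were higher, against 11.8% of all genes. Of 28 glycolysis and hypoxia genes 0 were called, and Bnip3 and Ldha (0.60 and 0.51) were low in scrMo replicate 2. Without that replicate 6 of them were called, and without NT replicate 1, 2 were. Txnip, which brakes glucose uptake, had 1343, 353 and 225 in NT and 280.3, 138 and 148 in scrMo. The groups overlapped and the fall of 0.87 did not stand without NT replicate 1 (-0.34) or scrMo replicates 2 (-0.78) or 3 (-0.80), nor with limma fitted to NT and scrMo alone (adjusted p = 0.138). Its list member Arrdc3 fell by 0.75, and was -0.56 without scrMo replicate 2. Of 15 aldehyde dehydrogenases 0 were called, and Aldh1a1 was 0.09 (adjusted p = 0.299) at 19.2 to 38.1 normalized counts. Of 37 lysosome and autophagy genes 1 rose, the lysosomal membrane protein Cd68. Without NT replicate 1 the called members were 2 in this list and 2 in cholesterol synthesis, where 2 were also called without scrMo replicate 1.

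Most listed markers of other cell types have no row. Of 12 macrophage markers 5 were measured, Cd68 rose by 0.89 (402, 391 and 406 to 1074, 949.5 and 836), and Ptprc, Csf1r, Cd14 and Lyz2 were not called. The summed macrophage counts were 1213 to 1341 in NT and 1666 to 2165 in scrMo. These sums include Cd68, also counted as a lysosomal gene above, with means of 400 in NT and 953 in scrMo. The median change of the list was -0.0046. The endothelial, muscle, adipocyte and epithelial lists had 2, 1, 2 and 1 measured members and 0 called. The muscle gene Acta1 was not low, at 1088.5 to 1153.7 normalized counts in NT and 1036.1 to 1093.5 in scrMo. The epithelial Krt8 was at 5.70 to 7.99 in NT and 8.02 to 14.6 in scrMo. Among the 6 measured chondrocyte genes 0 were called and Col11a2, at 20.7 to 27.1 in NT and 84.2 to 112 in scrMo, differed by 0.57, short of the fold limit. In that list 1 gene was called without NT replicate 2 or scrMo replicate 3.

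The scrMo effect was then set against that in confluent cultures under nutritional stress, by the interaction of treatment with culture condition. There 734 genes (4.43%) were DE between scrMo and NT, 314 higher (1.9%) and 420 lower (2.54%). The effect itself differed between conditions for 1810 genes (10.9%), of which 50.8% were higher under stress. With libraries centred on their median the share was 34.7%. Interferon-stimulated genes did not fall under stress, with 14 higher, 0 lower and a median of 0.38, and the interaction was called for 48 of 54. Oas2 was -1.77 in log phase and 0.70 under stress, an interaction of 2.48 (SE 0.23, adjusted p = 9.23e-08). For MHC class I genes the median was 0.11 under stress and the interaction was called for 12 of 21. C3 was 0.12 under stress (interaction 2.30). In stress NT several of these genes were already low. Mean normalized counts in log NT, log scrMo and stress NT were 6630, 1762 and 627 for Oas2, and 21149.6, 4715 and 639 for C3. They were 3466, 980 and 259 for Irf7. Cryab went the other way, at 2446 in log NT and 10208 in stress NT. Whether a low level in stress NT left less room for a fall was not tested. Col1a2 was -1.06 in log phase and 1.33 under stress, and Insig1 -0.87 and 1.49. Heat shock genes turned the other way, with 3 higher and 12 lower under stress. Cryab was -0.93 and Dusp5 -1.44. Mitochondrial rRNA rose in both conditions and more under stress, with a change of 4.50 for mt-Rnr2 under stress. Its normalized counts were 16081, 17142 and 15150.1 in stress NT and 399541, 376089 and 338838 in stress scrMo. Mitosis genes had a median of 0.06 under stress, and the interaction was called for 11 of 38.

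**Figure D5:**
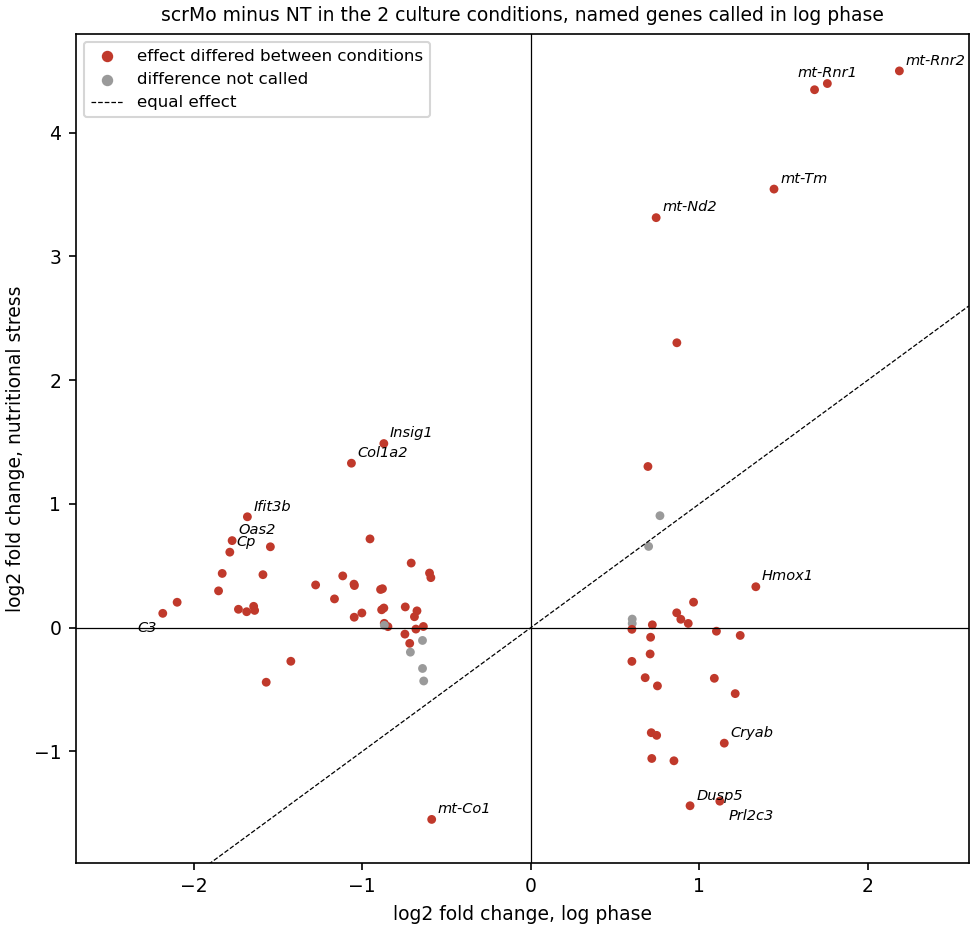
Log2 fold changes of scrMo against NT in log phase (x axis) and under nutritional stress (y axis) for the named genes called in log phase, in red where the interaction was called. Most genes that fell in log phase lie near or above 0 under stress, and mt-Rnr1, mt-Rnr2, mt-Tt, mt-Tm and mt-Nd2 lie well above the dashed line of equal effect. The genes drawn were chosen by their change on the x axis.

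DkkMo was compared with scrMo in log phase to find where the control oligomer differs from the targeted one. In that comparison 326 genes (1.97%) were DE, 275 (1.66%) higher and 51 (0.308%) lower with DkkMo. Without DkkMo replicate 2, 204 genes were called, and DkkMo replicate 2 was the highest of its group for Agt (194, 618 and 184), Mki67 (3496, 6129 and 4074), Top2a (6920.4, 11411 and 8525), Col1a1 (18500.3, 32561 and 15444) and Col6a1 (2478, 4559 and 2411). NT is shared by the comparisons with NT, so values are given side by side only. Most named genes were chosen by scrMo minus NT, and the same scrMo cultures enter DkkMo minus scrMo. That choice can enlarge the differences between the morpholinos given for single genes. C3 was -2.18 for scrMo and -0.65 for DkkMo, and the difference, DkkMo minus scrMo, was 1.53 (SE 0.20, adjusted p = 2.37e-05). Of the 54 interferon-stimulated genes, 25 were higher in DkkMo than scrMo and 0 lower, with a median of 0.54. Zbp1 was -1.73 for scrMo and -0.85 for DkkMo, with 1633, 1580.1 and 1586 normalized counts in DkkMo. Oas2 did not pass the fold limit between the morpholinos (0.53, adjusted p = 0.0216). H2-Q4 was -0.89 for scrMo and -1.05 for DkkMo, and the difference was -0.16 (adjusted p = 0.102). In mitosis 25 of 38 genes were higher in DkkMo than scrMo (median 0.63), but 6 were without DkkMo replicate 2 and 15 without scrMo replicate 2. In collagens 13 of 32 were higher, and 10 without either of these replicates in turn. For interferon-stimulated genes the count was 24 to 31 whichever replicate of DkkMo or scrMo was left out. Against NT, the medians for scrMo and DkkMo were -1.002 and -0.38 for interferon-stimulated genes and -0.68 and -0.43 for MHC class I genes. They were -0.44 and 0.16 for mitosis and -0.34 and 0.10 for collagens. The median of all genes with DkkMo against NT was 0.005. mt-Rnr2 was 2.19 for scrMo and 0.87 for DkkMo, and the difference, DkkMo minus scrMo, was -1.32 on the log2 scale (adjusted p = 3.70e-07). The rRNA share was 0.125 to 0.134% in DkkMo. Hmox1 and Ccn2 rose under both morpholinos (0.513% of all genes rose with DkkMo against NT), at 1.34 and 1.10 for scrMo and 1.11 and 1.29 for DkkMo, and the differences between the morpholinos of -0.23 and 0.18 were not called. Txnip was -0.87 for scrMo and 1.91 for DkkMo, a difference of 2.78 (adjusted p = 1.88e-06).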

How the data were processed

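RNA from 18 cultures was sequenced by the authors, who aligned reads to GRCm38 with HISAT2 2.1.0, processed them with SAMtools 1.9 and counted them with featureCounts (Subread 2.0.0), per the submitters' processing notes. The deposited values are log2 values after the variance-stabilising transformation of DESeq2, which the authors applied to all cultures together. Its treatment of strand and of multiply mapped reads is not given in the sources used here. Reversing the transformation gave whole reads for 100% of values in each library, and these divided by size factors are the normalized counts. The lowest value, 7.20, stands for no reads. Of 16576 genes listed, the last 14 rows were left out because their values spanned up to 10.3 within a group.

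Differences were tested on the deposited log2 values with limma 3.58.1 in R 4.3.3, with 1 mean per group over 18 libraries and a variance trend, and p values were adjusted by Benjamini-Hochberg over 16562 genes. Calls needed more than a 1.5-fold change and an adjusted p below 0.05. The filter (3 or more libraries above the floor) removed 0 genes. Named genes were the 12 largest rises and falls without overlap (predicted genes left out), up to 5 called members of each list or, where none was called, the 2 with the largest change, and set pathway genes. Genes that are not reported here stay in the counts and medians. Some list members outside that rule were named after their values were seen. Members and lists were chosen with earlier results of these data known, and 2 lists (complement, histones) were added after seeing them. The interval of counting error is small at 28.2 to 44.8 megareads except for genes with few reads.

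Alternatives were other filters, scalings, scales, weights, thresholds, a replicate block and leaving out each replicate. The method was also run on simulated data, in which each gene had the same spread setting in all groups. The larger spread of scrMo was therefore not tried, and no result here rests on that run. Promoters are from RefSeq (GRCm38.p6) and gene coordinates from GENCODE for GRCm38. Tables and figures used Python 3.11.15, pandas 2.3.3, NumPy 2.4.6 and Matplotlib 3.10.9. The 16 tumour samples were not analysed here.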

Additional observations from a re-analysis of the deposited data

Results flagged for a closer look

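Of the 106 named genes, 78 had a scrMo effect that differed between nutritional stress and log phase by a test of the difference itself, the interaction of limma (adjusted p below 0.05 and a difference over 1.5-fold, called for 10.9% of all genes). Of the 106, 81 were called in log phase, and most were chosen by their log phase change, which is itself part of the difference tested. That choice raises the number called, so 78 cannot be compared with the share of all genes. Several genes that fell in log phase were also already low in stress NT, as given above. Values are the log2 change with scrMo under stress minus that in log phase. Among genes that fell in log phase, the change under stress was higher, with differences of 2.58 for Ifit3b, 2.48 for Oas2, 2.40 for Cp, 2.39 for Col1a2, 2.36 for Insig1, 2.30 for Sned1, 2.30 for C3, 2.27 for Saa3, 2.20 for Gbp3, 2.15 for Ccn5 and 2.02 for Irf7. Differences among further genes that fell were 1.88 for Zbp1, 1.82 for Ifi27l2a, 1.81 for Agt, 1.78 for Col3a1, 1.67 for Col1a1, 1.62 for Cxcl5, 1.53 for Dkk3, 1.40 for Cbr2, 1.40 for Psmb8, 1.39 for Pcolce, 1.23 for Top2a and 1.20 for H2-Q4. Smaller positive differences among them were 1.20 for Acta2, 1.15 for Fos, 1.13 for H2-T23, 1.13 for Mmp13, 1.12 for Col6a1, 1.04 for Casp12, 1.03 for Mki67, 1.03 for H2-T22, 1.00 for Sparc, 0.91 for Cenpf, 0.90 for Spp1 and 0.86 for Tapbp. Other genes that fell had differences of 0.81 for Cx3cl1, 0.78 for Gpc1, 0.69 for Arrdc3, 0.67 for Ifitm5, 0.65 for Nusap1 and 0.59 for Anln. The fall was larger under stress for mt-Co1, with a difference of -0.96. Among genes that rose in log phase, the rise was larger under stress for mitochondrial genes, with differences of 2.66 for mt-Rnr1, 2.64 for mt-Tt, 2.57 for mt-Nd2, 2.31 for mt-Rnr2, 2.10 for mt-Tm, 1.44 for mt-Tl1 and 0.61 for mt-Nd3. The change was lower under stress for other genes that rose, with differences of -2.52 for Prl2c3, -2.38 for Dusp5, -2.08 for Cryab, -1.93 for Hsph1, -1.77 for Hspb1, -1.75 for Pim1, -1.62 for Plk3, -1.56 for Dnajb1, -1.50 for Hspa1b, -1.31 for Gadd45b, -1.22 for Tnfaip3 and -1.13 for Ccn2. Further negative differences were -1.08 for Mt1, -1.005 for Hmox1, -0.92 for Slc7a11, -0.90 for Chac1, -0.87 for Myc, -0.82 for Cd68, -0.79 for Plk2, -0.76 for Tbc1d2, -0.75 for Ptgs2, -0.70 for Ankrd1 and -0.61 for Ier3. Genes that were named but not called in log phase had differences of -1.10 for Ldha, -1.18 for Rps12, -0.96 for Rps25, 1.19 for Tlr2, 0.68 for Tlr3 and 0.76 for Tyk2.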

How the results depend on the processing

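Of the 81 called named genes, 0 changed sign in the log phase comparison under the alternatives run. Of all 106 named genes 3 did, all of them uncalled and near 0. Irf1 (-0.04) was 0.014 and Irf3 (-0.02) was 0.036 with libraries centred on their median, and Pecam1 (0.0011) was -0.061 with array weights. With a replicate left out they ranged from -0.369 to 0.306, from -0.0785 to 0.0289 and from -0.0532 to 0.0355. The number of DE genes depended on the scale and the threshold. Over the more abundant genes only (mean above that of the median gene) it was 269 (187 lower), with log2 normalized counts (pseudocount 1) it was 1320 (437 higher, 883 lower), and with limma voom on the recovered reads 1345 (428 higher, 917 lower). All 405 remained among the calls on both of these scales. A 2-fold limit left 93 (12 higher, 81 lower), and no fold limit gave 4365 (1954 higher, 2411 lower). Leaving out a replicate gave 377 to 468 genes (89 to 125 higher, 263 to 343 lower). The interaction gave 4220 genes with log2 normalized counts, 4242 with voom and 1725 to 1961 with a replicate left out. DkkMo against scrMo gave 199 with the filter on the mean, 1158 and 1136 on these scales, and 204 to 418 with a replicate left out, the lowest without DkkMo replicate 2. Small medians changed sign. Aldehyde dehydrogenases (0.04) were at -0.000992 without NT replicate 1 and between -0.00282 (without scrMo replicate 2) and 0.0435 over all left-out replicates, and adipocyte markers at -0.090 with the filter on the mean. Of the called named genes, 18 lost the call without 1 replicate and 9 under an alternative with all libraries: Casp12, Sparc, Thbs1 and mt-Co1 with median centring, Casp12, Slc3a2, Sparc and mt-Co1 with quantile normalization, Ier3, Mt1 and mt-Nd3 with array weights, Mt1 and Txnip with only the compared groups in the model, and Thbs1 under the block. The cause of these changes was not tested, apart from the thresholds and scales, which act by construction.

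The replicate numbers of the titles did not pair the cultures, since same-numbered NT and scrMo libraries deviated together with correlations of 0.024, -0.039 and 0.11. With the replicate number as a block 404 genes were called, 403 of them shared with the fit without it, and DkkMo against scrMo gave 324. Thbs1 was short of the limits under the block. No paired analysis was possible for the interaction because 2 stress NT titles carry the same number. Depth limits genes with few reads, such as Aldh1a1 and Agt in scrMo, whose variance-stabilised changes are compressed.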
